A study of Mus musculus with 14 samples.

Results

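The early step of the response to a low-fat (LF) meal was followed in mouse duodenal mucosa by setting the pool sacrificed 1 h after the beginning of the meal (LF1h) against the pool sacrificed 30 min after it (LF30min). The comparison rests on 4 of the 14 arrays of the study, 2 for each pool, and on none of the fasting arrays. Each of the 7 pools held duodenal mucosa RNA of 20 male C57BL6 mice, 12 weeks old, that had received the LF diet for 2 weeks and had then been fasted for 12 h. The LF meal gave 10% of its calories as fat, 70% as carbohydrate and 20% as protein. The high-fat (HF) meal, whose step between the same time points is given beside the LF step, gave 60%, 20% and 20%. The 2 arrays of a pool were technical replicates of 1 RNA pool, so all errors and p-values cover the array and not the mouse, and a difference between pools cannot be told apart from a difference between the 20 mice of each.

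The duodenum receives food from the stomach together with bile and pancreatic juice. Its mucosa holds absorptive enterocytes, goblet, Paneth and enteroendocrine cells over a lamina propria of immune and muscle cells, and mucus-secreting Brunner glands lie beneath its first stretch. Pancreatic acinar cells store digestive enzymes in zymogen granules and release them after a meal, while gastrokines and trefoil factors are secreted by the mucous cells of the stomach. After feeding, insulin turns off the genes of gluconeogenesis, of which Pck1 is the classical case, and heat shock proteins assist the folding of cytosolic proteins.

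The values were log2 signals after Robust Multiarray Analysis (RMA). Across the 45037 probe sets tested, the 2 arrays correlated at 0.9958 in LF1h and at 0.996 in LF30min, and the array medians lay between 4.48 and 4.52. The difference between 3′ and 5′ control probe sets, read for RNA quality, was 0.47 and 0.48 for beta-actin in LF1h, against 0.5 in each LF30min array. For Gapdh it was 0.03 and 0.04 in LF1h, against 0.1 and 0.03 in LF30min, and -0.04 to 0.09 in the other arrays. The 21 enterocyte markers measured were bright and level, at a mean of 12.14 and 12.11 in the LF1h arrays, against 12.04 and 12.06 in the LF30min arrays.

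Between LF1h and LF30min, 72 of 45037 probe sets (0.16%) had an adjusted p under 0.05 and changed at least 2-fold, 56 upwards and 16 downwards, and these are called modulated below. They were 0.124% and 0.0355% of all probe sets. In each of the 72, both LF1h arrays lay outside the range of the LF30min arrays. This follows largely from the rule, since a 2-fold minimum is wide beside the spread between replicate arrays. With the adjusted p alone, which is what "passed the test" means below, 281 probe sets changed (0.624%). Counted as genes, each by its brightest probe set, 142 of 18193 passed the test (0.781%), 93 higher (0.511%) and 49 lower (0.269%), and 43 of them were modulated (0.236%), 33 upwards (0.181%) and 10 downwards (0.055%). The list counts below can be read against these shares. The median standard error of the step was 0.11 on the log2 scale, and the median change over all genes was 0.004. Of the 142 genes, 75 also passed without any 1 of the 4 arrays. Of the 43 modulated genes, 37 stayed modulated without any 1 of them. The other 6 were Hspa1b, Slc34a2, Iapp, Sostdc1, Hamp2 and Igkv6-20. In a fit of the 4 arrays alone, which leaves the spread to fewer arrays, 95 of the 142 no longer passed.

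**Figure D1:**
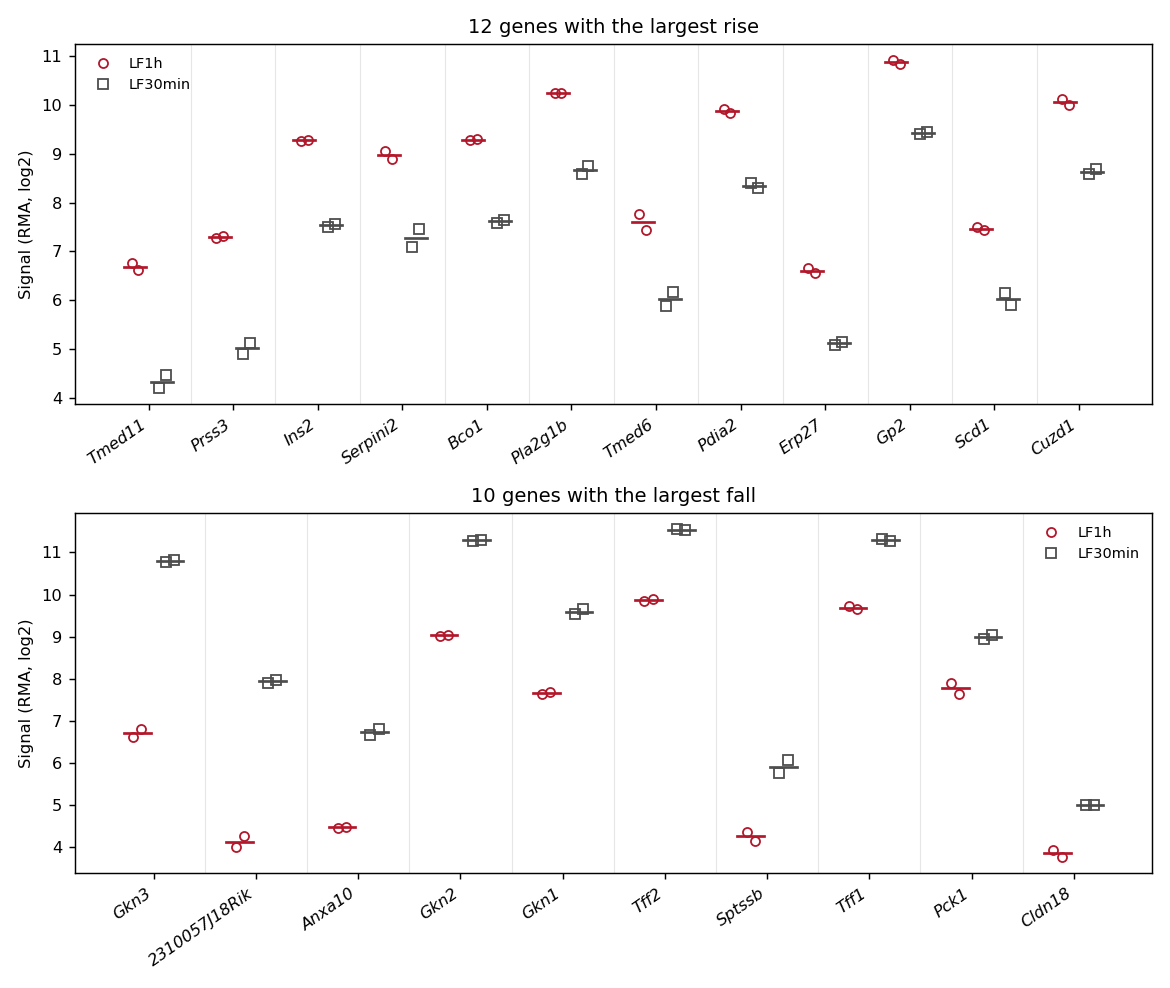
Signal (log2, RMA) of each array for the 12 genes with the largest rise and the 10 genes with the largest fall among modulated genes, LF1h as circles and LF30min as squares, with a bar at the mean of the 2 arrays. Only genes whose LF1h and LF30min arrays do not overlap were taken, and Gkn3 shows the widest gap, 6.61 and 6.8 against 10.78 and 10.82.

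The widest change was a fall of genes made by the mucous cells of the stomach. Gkn3, a gastrokine of the gastric mucosa, had 6.61 and 6.8 in LF1h, against 10.78 and 10.82 in LF30min. It fell by 4.09 ± 0.17 (SE) on the log2 scale (adjusted p = 1.6e-08), and its other probe set fell by 3.92. Gkn2, which pairs with the trefoil factor encoded by Tff1, had 9.01 and 9.05, against 11.28 and 11.29, a change of -2.26 ± 0.08 (adjusted p = 7.7e-09). Gkn1, the gastrokine of gastric surface cells, had 7.64 and 7.7, against 9.54 and 9.65, and changed by -1.93 ± 0.11. In all 3 genes the replicate arrays lay closer together than the pools by an order of magnitude or more.

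The trefoil factors stabilise the mucus layer. Tff2, made by gastric mucous neck cells and Brunner glands, had 9.84 and 9.89 in LF1h, against 11.55 and 11.54 in LF30min, a change of -1.68 ± 0.08 (adjusted p = 1.2e-07). Tff1, of gastric surface cells, had 9.72 and 9.65, against 11.33 and 11.27, a change of -1.62 ± 0.09 (adjusted p = 2.1e-07). Anxa10, an annexin found in gastric epithelium, had 4.46 and 4.49, against 6.67 and 6.81, and Cldn18, a tight junction protein with a stomach isoform, had 3.94 and 3.78, against 5.01 in each LF30min array. Anxa10 fell by 2.27, with its other probe set at -0.29, and Cldn18 fell by 1.15 on the log2 scale, with its other probe set at -0.46. The LF1h signals of both genes lay at or below the array medians, where no call says whether a probe set was detected.

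Of the 22 stomach and Brunner gland genes measured, 8 passed the test, all lower, and none was higher. Over all genes 0.269% were lower. The list median was -0.19. Cldn18 is not on the list, and the 2 that passed beside Gkn1, Gkn2, Gkn3, Tff1, Tff2 and Anxa10 were Muc5ac, the gel-forming mucin of the gastric surface, with a change of -0.70, and the aspartic protease gene Ctse, with -0.67. The genes of the acid- and enzyme-secreting gastric glands did not move with them. The proton pump subunit gene Atp4a had a difference of 0.78 (adjusted p = 0.081), the intrinsic factor gene Cblif 0.58 (adjusted p = 0.051), the chitinase gene Chia1 0.57 (adjusted p = 0.15) and the pepsinogen gene Pgc 0.43 (adjusted p = 0.24). These 4 differences were positive and none passed the test, and the 4 signals lay under 6 in every one of the 4 arrays. The mean level of the list was 5.88 and 5.91 in LF1h, against 6.55 and 6.49 in LF30min. In these bulk pools fewer cells of a type and less RNA per cell cannot be told apart, and the place along the duodenum at which mucosa was taken was not tested.

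A pair of lower genes on none of the lists shared this course. The gene 2310057J18Rik had 4.0 and 4.28 in LF1h, against 7.9 and 7.98 in LF30min, the second largest fall of all genes (-3.80 ± 0.12, adjusted p = 1.1e-09). Sptssb, a small subunit of serine palmitoyltransferase in sphingolipid synthesis, had 4.36 and 4.16, against 5.77 and 6.07 (-1.66 ± 0.14), with its other probe set at -0.80. Over the 10 arrays of the other 5 pools, the signal of 2310057J18Rik and that of Sptssb each correlated at 0.97 with the mean of the stomach list. Of the 16 modulated probe sets that fell, 11 had such a correlation of 0.9 or more, as did 0.147% of all probe sets. So had 3 modulated probe sets that rose, all of Iapp. The 11 include probe sets of members of the stomach list, whose correlation with their own mean is partly built in. The arrays of 1 pool are repeats of 1 RNA, and the profile was chosen after the values had been seen.

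Genes for digestive enzymes of the exocrine pancreas rose together. Of all genes 0.511% were higher. All 18 pancreatic enzymes and cofactors measured passed the test, all higher, with a median of 0.93 and a range of 0.40 to 2.27. Their mean level was 11.93 and 11.92 in LF1h, against 10.91 and 10.96 in LF30min. Cela3b (0.40, adjusted p = 0.037) and 2210010C04Rik (0.44, adjusted p = 0.035) passed narrowly. With each array centred on its median, the adjusted p-values of these genes were 0.06 and 0.054. Prss3, a trypsinogen, had 7.27 and 7.31 in LF1h, against 4.9 and 5.13 in LF30min, a change of 2.27 ± 0.11 (adjusted p = 6.7e-08). Pla2g1b, the pancreatic phospholipase, had 10.25 in each LF1h array, against 8.58 and 8.74, and Amy1, an amylase, had 5.17 and 5.14, against 3.88 and 3.97. Their changes were 1.59 ± 0.10 and 1.23 ± 0.14. Genes of the trypsinogen and amylase families are near copies of each other, so their probe sets may share signal. In bulk pools more pancreatic tissue and more RNA per cell cannot be told apart, here and for the acinar, secretory and islet genes below.

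Genes for enzymes of fat digestion showed the same order of change. Pnliprp1, a lipase-related protein, had 12.31 and 12.42 in LF1h, against 11.14 and 11.23 in LF30min, and rose by 1.18 ± 0.09 (adjusted p = 3.4e-06). Clps, the cofactor of pancreatic lipase, had 13.02 and 13.04, against 12.01 and 12.0, and Cel, the carboxyl ester lipase, had 13.19 in each LF1h array, against 12.01 and 12.11. Clps changed by 1.02 and Cel by 1.13. Among the proteases, Cela1, an elastase, had 13.6 and 13.69, against 12.97 and 12.98 (0.67 ± 0.08, adjusted p = 0.00046), and Ctrl, a chymotrypsin-like protease, had 13.32 and 13.31, against 12.47 in each LF30min array (0.84 ± 0.08).

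The size of the change went with the brightness of the probe set. The 9 brighter enzymes, with a mean of 12.64 or more over the 14 arrays, changed by 0.40 to 0.84, and the 9 dimmer ones, with 12.4 or less, by 1.02 to 2.27, while the brightest probe set of any array reached 14.34 to 14.41. Cela3b, an elastase with 4 probe sets, showed the same within 1 gene: its brightest probe set changed by 0.40 and the others by 0.84, 1.00 and 1.21. The part of signal saturation in these values was not tested.

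Genes for proteins that acinar cells use to pack and release enzymes rose as well. Over all genes 0.511% were higher, 0.269% lower and 0.181% modulated upwards. Of 26 acinar genes other than enzymes, 12 were higher and 1 was lower, with a median of 0.60, and 9 of the 12 were modulated. The lower one was Tff2, which is also on the stomach list. Gp2, the main glycoprotein of the zymogen granule membrane, had 10.91 and 10.84 in LF1h, against 9.4 and 9.44 in LF30min, a change of 1.45 ± 0.08 (adjusted p = 2.5e-07). Cuzd1, another zymogen granule membrane protein, had 10.11 and 9.99, against 8.58 and 8.68, and Serpini2, a pancreatic protease inhibitor of the serpin family, had 9.05 and 8.9, against 7.09 and 7.45. They changed by 1.42 ± 0.09 and 1.70 ± 0.12. Cckar, the receptor through which cholecystokinin acts on the pancreas, had 6.37 and 6.46, against 5.04 and 4.96 (1.41 ± 0.11).

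Genes for secretory pathway proteins were among the largest rises. Tmed11, a member of the family of cargo receptors between endoplasmic reticulum and Golgi, had 6.76 and 6.61 in LF1h, against 4.21 and 4.46 in LF30min, and with 2.35 ± 0.11 it changed most of the higher genes (adjusted p = 5.6e-08). Tmed6, of the same family, had 7.77 and 7.43, against 5.88 and 6.16 (1.58 ± 0.14). Pdia2, the pancreatic protein disulfide isomerase, had 9.91 and 9.83, against 8.39 and 8.29 (1.53 ± 0.09). Erp27, an endoplasmic reticulum protein related to the disulfide isomerases, had 6.66 and 6.55, against 5.09 and 5.14 (1.49 ± 0.16), and its other probe set showed a difference of 0.00. Of 32 endoplasmic reticulum chaperones and unfolded protein response genes none passed the test, against 0.781% of all genes, so this count says little. In that list 24 differences were positive, and the median was 0.11. The chaperone gene Hspa5 had a difference of 0.11 (adjusted p = 0.73).

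Over the 10 arrays of the other 5 pools, 34 of the 56 modulated probe sets that rose correlated at 0.9 or more with the mean of the pancreatic enzymes, as did 0.313% of all probe sets. The 34 include probe sets of the listed enzymes themselves, whose correlation with their own mean is partly built in. Acinar genes and transcription factors of the list did not all pass: Ptf1a, the transcription factor that drives acinar enzyme genes, had a difference of 0.81 (adjusted p = 0.085), Bhlha15 of 0.39 (adjusted p = 0.17) and Rbpjl of 0.04 (adjusted p = 0.96). The promoter of Cela1 is shown because it holds the paired motif bound by the Ptf1a complex (PTF1), in capitals, in the 150 bases before its start (RefSeq, GRCm38.p6, chr15:100687921-100688070, minus strand, printed from the 5′ end).

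Cela1: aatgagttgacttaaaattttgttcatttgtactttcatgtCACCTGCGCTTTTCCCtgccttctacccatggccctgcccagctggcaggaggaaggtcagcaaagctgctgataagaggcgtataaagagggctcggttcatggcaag

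The letters searched on both strands of the whole listed promoter sequences were CACCTG followed after 3 bases by TTTTCCC. Cela1 had the 1 promoter of 32851 (0.00304%) to hold them, while 15 of the 16 enzymes with a promoter sequence did not. These letters are 1 exact form of the motif, and other forms were not searched. A single match among all promoters goes with so long a string, and no match says only that these letters are not in the sequence searched.

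**Figure D2:**
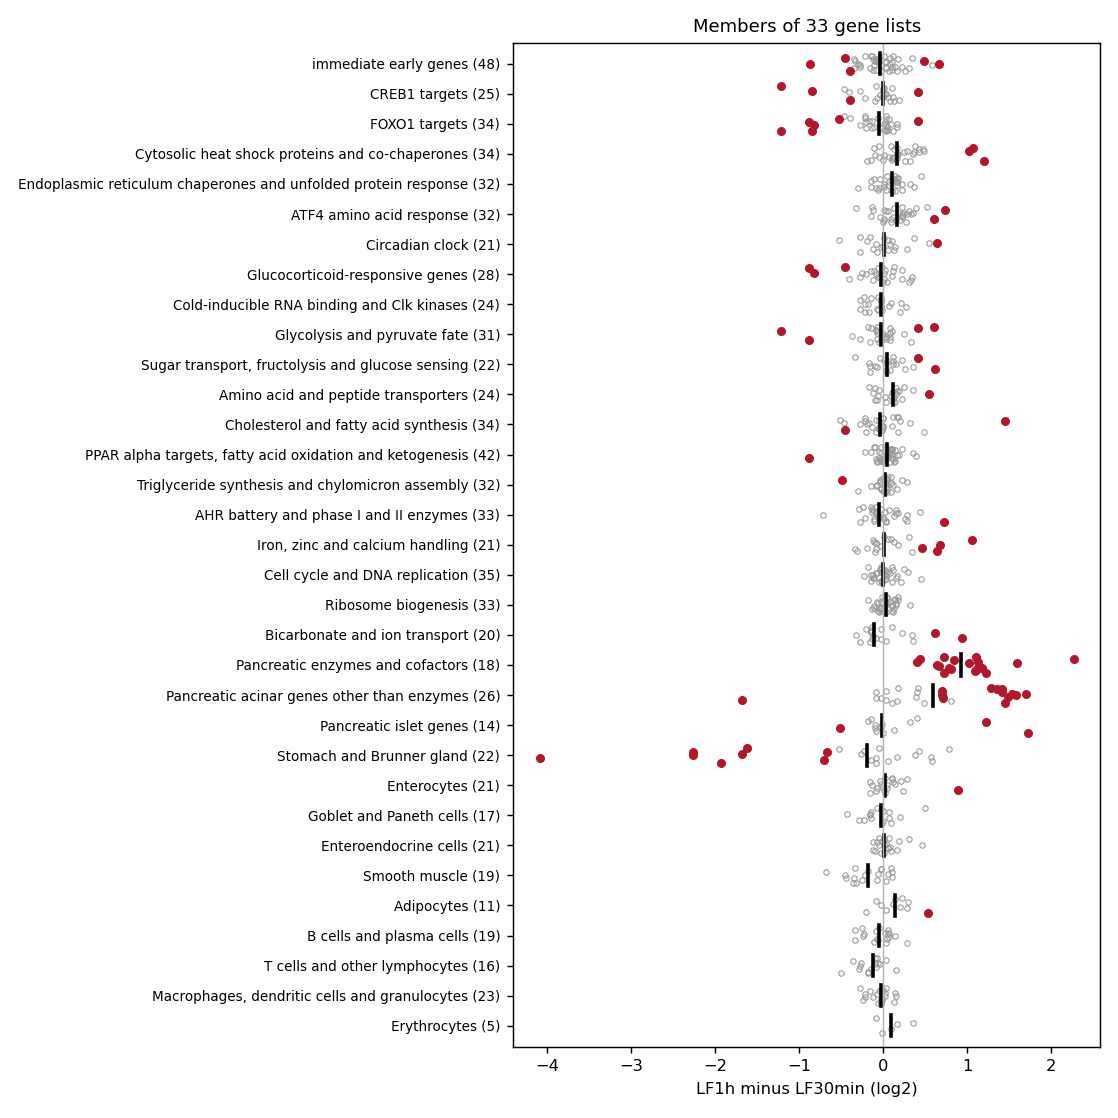
Change from LF30min to LF1h (log2) of each member of the 33 gene lists, with the number of members measured in brackets. Filled points passed the test, open points did not, and the bar is the list median. The 18 pancreatic enzymes all lie right of 0, the 8 filled stomach genes all left of it, and most other lists centre near the median of 0.004 over all genes.

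Among the islet genes measured, 2 hormone genes of the endocrine pancreas rose too. Ins2, which encodes insulin, had 9.26 and 9.28 in LF1h, against 7.5 and 7.57 in LF30min, and rose by 1.73 ± 0.09 (adjusted p = 2.3e-07). Iapp, which encodes the amylin that beta cells secrete with insulin, had 7.78 and 7.57, against 6.18 and 6.7, and rose by 1.23 ± 0.14 (adjusted p = 0.00045). Without the LF30min replicate 1 the change of Iapp was 0.97, under 2-fold. Its 3 other probe sets changed by 0.70 to 1.28.

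The remaining islet genes measured did not follow, and 3 others of the list were not measured. Of 14 measured, only these 2 were higher, and Ttr, transthyretin, was lower (-0.51, adjusted p = 0.011, and 0.066 to 0.12 without LF1h replicate 1, LF1h replicate 2 or LF30min replicate 2), with its 3 other probe sets at -0.65 to 0.06. The glucagon gene Gcg had a difference of -0.10 (adjusted p = 0.85), the pancreatic polypeptide gene Ppy 0.40 (adjusted p = 0.087), and the beta cell genes Slc30a8 and G6pc2 lay at 3.1 and 2.67 in LF1h, against 3.24 and 2.53 in LF30min, low in both pools. A probe set that the annotation used here ties to no gene had 9.48 and 9.34 in LF1h, against 7.43 and 7.33 in LF30min. It rose by 2.04 (adjusted p = 1.2e-07). Its course lay close to that of Ins2, with means of 8.82 in the fasting pool, 7.38 in LF30min and 9.41 in LF1h. Ins2 had 8.99, 7.53 and 9.27. Whether this probe set reads a further islet gene was not tested.

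Of the 72 modulated probe sets, 23 belonged to none of the pancreatic and stomach lists and had neither profile, 18 higher and 5 lower. A probe set with no gene could be on no list, so the 23 may still hold pancreatic or stomach signal. The widest change among them was that of the probe set with no gene described above (2.04). Its course lay close to that of Ins2, which as a list member is not among the 23. Next came a probe set of Car3 (1.79), described below, then Bco1 and Scd1. Bco1, the oxygenase by which enterocytes cleave beta-carotene to retinal, had 9.27 and 9.31 in LF1h, against 7.58 and 7.65 in LF30min, a change of 1.67 ± 0.08 (adjusted p = 1.2e-07). Scd1, the desaturase that makes oleate from stearate, had 7.5 and 7.43, against 6.14 and 5.9 (1.45 ± 0.10, adjusted p = 1.6e-06). The other probe set of Scd1 had a difference of 0.23 (adjusted p = 0.35). Genes of fat tissue that moved with Scd1 were Car3, in 1 of 4 probe sets (1.79), Adipoq (0.54) and Lpl, a lipase (0.70, adjusted p = 0.008, and 0.081 to 0.097 without LF1h replicate 1 or LF30min replicate 2, with its other probe set at -0.25). Of 11 adipocyte markers, 8 had a positive difference and 1, Adipoq, passed, and the mean level of the list was 5.54 and 5.59 in LF1h, against 5.46 and 5.39 in LF30min. Their part in the change of Scd1 was not tested. Scd1 was the 1 gene of 34 on the cholesterol and fatty acid synthesis list that rose, and the malic enzyme gene Me1 was the 1 that fell (-0.46, adjusted p = 0.038, and 0.072 to 0.21 when any 1 of the 4 arrays was left out).

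Heat shock genes of the cytosol rose further between 30 min and 1 h. Hspa1b, an inducible chaperone of the Hsp70 family, had 10.18 and 9.9 in LF1h, against 8.9 and 9.14 in LF30min, a change of 1.02 ± 0.12 (adjusted p = 0.00053), with its 2 other probe sets at 1.04. Without LF1h replicate 1 the change was 0.88 and without LF30min replicate 1 it was 0.89, just under 2-fold. Hspa1a, its neighbour and near copy, had 7.3 and 7.16, against 5.86 and 6.2 (1.20 ± 0.16, adjusted p = 0.0013). Hsph1, which exchanges the nucleotide of these chaperones, had 8.78 and 8.77, against 7.73 and 7.69 (1.07 ± 0.09, adjusted p = 1.4e-05), and its other probe set changed by 1.38.

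The rest of the heat shock list did not pass. Of 34 genes, these 3 were higher, against 0.511% of all genes, and none was lower. In the list 27 differences were positive, and the median was 0.16. The next largest differences were 0.49 for the co-chaperone gene Ahsa1 (adjusted p = 0.058), 0.47 for Hspb8 (adjusted p = 0.23), 0.43 for Bag3 (adjusted p = 0.1) and 0.37 for Dnajb1 (adjusted p = 0.062). The constitutive Hspa8 had a difference of 0.16 (adjusted p = 0.62) and the inducible Hsp90aa1 of 0.35 (adjusted p = 0.14).

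The promoters of the pair are printed because they show how alike the 2 genes are and where the heat shock element lies. In the 150 bases before the start, 149 are identical. The genes are near copies, and whether their probe sets share signal was not tested. The capitals mark 2 joined units of the element (RefSeq, GRCm38.p6, Hspa1a at chr17:34972157-34972306 and Hspa1b at chr17:34959239-34959388, both on the minus strand).

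Hspa1a: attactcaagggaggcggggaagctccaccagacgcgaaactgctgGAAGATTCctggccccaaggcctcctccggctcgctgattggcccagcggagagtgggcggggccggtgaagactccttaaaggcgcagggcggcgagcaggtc

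Hspa1b: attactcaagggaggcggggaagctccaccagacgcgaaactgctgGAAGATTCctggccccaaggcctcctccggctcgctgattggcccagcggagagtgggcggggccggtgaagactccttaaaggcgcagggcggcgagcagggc

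The site begins 104 bases before the start in each. Searched as GAANNTTC on both strands, it was found in 7.86% of 32851 promoters. It was found in 13 of the 29 heat shock list genes with a promoter sequence (44.8%). The search ran over each whole listed promoter sequence, which is longer than the stretch printed. The first share counts promoters, and the second counts genes with a match in any of their promoters, so they are in unlike units.

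Pck1 and Pdk4 were lower at 1 h. Pck1, the key enzyme of gluconeogenesis, had 7.9 and 7.65 in LF1h, against 8.95 and 9.03 in LF30min, a change of -1.22 ± 0.10 (adjusted p = 2.2e-05). Of its 2 other probe sets, 1 fell by 1.12 and the other, at 2.83 and 2.69 in LF1h against 2.9 and 2.58, read near the bottom of the range. Pdk4, the kinase that turns off pyruvate dehydrogenase, had 8.55 and 8.54, against 9.45 and 9.4 (-0.88 ± 0.08, adjusted p = 4.5e-05). In neither gene did the pools overlap.

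The list of FOXO1 targets holds genes that this transcription factor drives when insulin is low. Of its 34 members, 5 fell and 1 rose, against 0.269% and 0.511% of all genes, with a median of -0.05. Beside Pck1 and Pdk4 these were Cited2, a transcriptional co-regulator, with 8.11 and 8.08 in LF1h, against 8.82 and 9.06 in LF30min (-0.85 ± 0.10, adjusted p = 0.00044), and the repressor gene Bcl6, with 5.36 and 5.2, against 6.06 and 6.13 (-0.82 ± 0.09, adjusted p = 0.0004). The other probe set of Bcl6 had a difference of -0.13 (adjusted p = 0.87). The fifth was Bcl2l11, a promoter of cell death (-0.52, adjusted p = 0.0068, and 0.059 to 0.086 without LF1h replicate 2, LF30min replicate 1 or LF30min replicate 2). The higher one was G6pc, glucose-6-phosphatase, with 11.98 and 11.96, against 11.54 and 11.59 (0.41 ± 0.08, adjusted p = 0.029, and 0.12 to 0.15 when any 1 of the 4 arrays was left out). The insulin receptor substrate gene Irs2 had a difference of -0.47 (adjusted p = 0.099), Txnip of -0.17 (adjusted p = 0.56) and Igfbp1 of 0.16 (adjusted p = 0.72).

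The Pck1 promoter is shown because its cyclic AMP response element, in capitals, is the classical site of this gene's control. The 150 bases before the start are from RefSeq, GRCm38.p6, chr2:173152923-173153072, plus strand.

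Pck1: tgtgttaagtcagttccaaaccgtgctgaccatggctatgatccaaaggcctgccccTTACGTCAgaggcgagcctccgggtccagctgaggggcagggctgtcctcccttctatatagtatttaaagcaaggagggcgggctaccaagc

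The element TTACGTCA begins 93 bases before the start. With both strands of the whole listed promoter sequences searched, 0.499% of 32851 promoters held it. On the list of CREB1 targets, genes of the factor that binds such elements, 3 of 25 fell and 1 rose. Over all genes 0.269% fell and 0.511% rose. The 4 list members that passed were Pck1, Cited2, Fos and G6pc.

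Immediate early genes, which stimuli induce within minutes, moved in both directions. Of 48 genes, 3 were lower and 2 higher, against 0.269% and 0.511% of all genes, with a median of -0.04. Egr1 had 7.2 and 7.28 in LF1h, against 8.02 and 8.21 in LF30min (-0.87 ± 0.09, adjusted p = 0.00012). Socs3, the feedback inhibitor of cytokine signalling, had 8.68 and 8.42, against 7.87 and 7.92 (0.66 ± 0.09, adjusted p = 0.0032). The other 3 did not hold when arrays were left out. Fos changed by -0.39 (adjusted p = 0.045, and 0.14 to 0.19 without any 1 of the 4 arrays). The kinase gene Sgk1 changed by -0.46 (adjusted p = 0.037, and 0.12 to 0.28 without LF1h replicate 1, LF1h replicate 2 or LF30min replicate 2). The phosphatase gene Dusp6 changed by 0.49 (adjusted p = 0.014, and 0.06 to 0.12 without LF1h replicate 1, LF30min replicate 1 or LF30min replicate 2).

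On the list of iron, zinc and calcium handling, 4 of 21 genes, all transporters, rose and none fell, with a median of 0.01 and 11 positive differences. Over all genes 0.511% rose. Slc34a2, a sodium-phosphate cotransporter, had 7.15 and 7.04 in LF1h, against 6.21 and 5.88 in LF30min (1.06 ± 0.12, adjusted p = 0.00036). It fell just short of 2-fold without LF1h replicate 1, and its change was 0.89 without LF30min replicate 2. Slc11a2, the apical iron importer, had 8.13 and 8.09, against 7.43 and 7.44 (0.68 ± 0.08, adjusted p = 0.00052). Of its 3 other probe sets, 1 changed by 0.66, and the others had differences of 0.14 (adjusted p = 0.7) and -0.03 (adjusted p = 0.96).

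Slc20a1, another phosphate transporter, had 8.09 and 8.08 in LF1h, against 7.44 and 7.47 in LF30min (0.64, adjusted p = 0.0048, and 0.053 without LF30min replicate 1). The zinc exporter gene Slc30a1 had 9.37 and 9.28, against 8.86 and 8.88 (0.46, adjusted p = 0.019, and 0.066 to 0.12 without any 1 of the 4 arrays), and its other probe set had a difference of -0.00 (adjusted p = 1.0). Metallothionein genes, which zinc induces, did not pass, with Mt1 at a difference of 0.34 (adjusted p = 0.11) and Mt2 at 0.13 (adjusted p = 0.73). The basolateral iron exporter gene Slc40a1 had a difference of -0.31 (adjusted p = 0.21).

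Slc2a5, the fructose transporter of the brush border, had 10.89 and 10.84 in LF1h, against 10.21 and 10.27 in LF30min (0.62 ± 0.08, adjusted p = 0.00089). With G6pc it made 2 of 22 genes of sugar transport and fructose use that passed, against 0.781% of all genes, and none fell. The glucose transporter genes Slc5a1 and Slc2a2 had differences of -0.16 (adjusted p = 0.56) and 0.03 (adjusted p = 0.95), and the fructose kinase gene Khk of 0.04 (adjusted p = 0.92). Among 24 amino acid and peptide transporters, 1 rose, the proton-coupled Slc36a1 (0.55, adjusted p = 0.0047, and 0.064 without LF1h replicate 1 or LF30min replicate 1). Pfkfb3, which makes the activator of glycolysis, rose by 0.60 (adjusted p = 0.0086, and 0.078 to 0.1 without LF1h replicate 1 or LF30min replicate 1).

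Single genes of other lists also rose, against 0.511% of all genes. Cubn, the receptor for intrinsic factor and cobalamin, had 10.19 in each LF1h array, against 9.3 and 9.31 in LF30min (0.89 ± 0.08, adjusted p = 4.1e-05), and was the 1 of 21 enterocyte genes that passed. Aqp1, a water channel, had 7.96 and 7.98, against 7.02 and 7.04 (0.94 ± 0.10, adjusted p = 0.00022), and Guca2a, the gut peptide guanylin, had 9.42 in each LF1h array, against 8.81 and 8.8 (0.62 ± 0.09). Cyp1a1, the main target of the aryl hydrocarbon receptor, had 7.82 and 7.62, against 6.95 and 7.05 (0.72 ± 0.10), and Bhlhe40, a clock repressor, had 10.72 and 10.65, against 10.04 in each LF30min array (0.64 ± 0.08). These 5 passed without any 1 of the 4 arrays. Aqp1 and Guca2a were the 2 of 20 genes of bicarbonate and ion transport that passed, Cyp1a1 the 1 of 33 on the list of phase I and II enzymes and Bhlhe40 the 1 of 21 on the clock list. On the list of the amino acid response of ATF4, 2 of 32 rose: Nupr1 by 0.74 (adjusted p = 0.0048, and 0.054 to 0.056 without LF1h replicate 2 or LF30min replicate 2) and Asns, asparagine synthetase, by 0.60 (adjusted p = 0.0046, and 0.051 without LF30min replicate 2).

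On each of 2 lists of fat metabolism a single gene passed, against 0.781% of all genes. Of 42 PPAR alpha targets and fatty acid oxidation genes 1 passed, Pdk4, and of 32 genes of triglyceride synthesis and chylomicron assembly 1, Lpin2, a phosphatidate phosphatase (-0.49, adjusted p = 0.024, and 0.071 to 0.16 without any 1 of the 4 arrays). Of 28 glucocorticoid-responsive genes 3 were lower (Pdk4, Bcl6 and Sgk1). Of 31 genes of glycolysis and pyruvate use 2 were lower (Pck1 and Pdk4) and 2 higher (Pfkfb3 and G6pc). The shares over all genes were 0.269% lower and 0.511% higher. No gene passed among 35 of the cell cycle, 33 of ribosome biogenesis or 24 of cold-inducible RNA binding and Clk kinases. Nor did any pass among markers of goblet and Paneth cells (17), enteroendocrine cells (21), smooth muscle (19), B cells (19), T cells (16), macrophages and granulocytes (23) or erythrocytes (5). Their medians lay between -0.18, for smooth muscle, and 0.09, for erythrocytes. With 0.781% of all genes passing, lists of these sizes will often hold none, so the lack of a pass says little about them. Adipoq, the adipocyte hormone adiponectin, was the 1 of 11 adipocyte markers that passed, at 3.49 and 3.53 in LF1h, against 2.9 and 3.04 in LF30min, near the bottom of the range (0.54, adjusted p = 0.037, and 0.086 to 0.19 without any 1 of the 4 arrays).

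Further genes are named here because of their values. Rab30, a small GTPase of the Golgi, had 8.67 and 8.69 in LF1h, against 7.3 and 7.41 in LF30min (1.33 ± 0.10, adjusted p = 3.6e-06), with its dim other probe set at a difference of 0.21. Tifa, an adaptor of innate immune signalling, had 7.52 and 7.14, against 6.05 and 6.22 (1.20 ± 0.12), and Ereg, a ligand of the EGF receptor, had 6.33 and 6.17, against 5.24 and 5.45 (0.90 ± 0.12). Foxq1, a forkhead transcription factor, had 7.43 and 7.25, against 8.14 and 8.36 (-0.91 ± 0.10), with its other probe set at -1.29. The apelin receptor gene Aplnr had 4.53 and 4.41, against 5.29 and 5.55 (-0.95 ± 0.12), with its other probe set at 0.00. Each of these 5 passed without any 1 of the 4 arrays.

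In some genes the probe sets disagreed. Of genes named above, the other probe set of Pfkfb3 had a difference of 0.40 (adjusted p = 0.096) and that of Me1 had -0.30 (adjusted p = 0.37). The other probe sets of Slc20a1 had 0.66 (adjusted p = 0.055) and 0.02 (adjusted p = 0.98). Of the other probe sets of Pla2g1b, 1 changed by 1.78, and the dim rest had differences of -0.10 and -0.07. Slc13a1, the sulfate transporter, fell by 1.16 in a dimmer probe set, with 7.28 and 6.98 in LF1h, against 8.28 and 8.31 in LF30min, and had a difference of -0.18 (adjusted p = 0.47) in its brightest. Mal, a protein of apical membrane traffic, fell by 1.35 in a dimmer probe set and had a difference of -0.28 (adjusted p = 0.56) in its brightest. Car3, a carbonic anhydrase of fat and muscle, rose by 1.79 in 1 probe set, with 5.47 and 5.29, against 3.62 and 3.56, and had differences of -0.02 to 0.14 in the other 3. What tells these probe sets apart was not tested. Sostdc1, a secreted inhibitor of BMP and Wnt signals, rose by 1.10, with its other probe set at a difference of 0.19 (adjusted p = 0.71). Hamp2, a hepcidin, rose by 1.05, with its other probe set at a difference of 0.16 (adjusted p = 0.72). The value without 1 array crossed 2-fold for Sostdc1 (0.94 without LF30min replicate 1) and for Hamp2 (0.91 to 1.19). That of the antibody gene Igkv6-20 (1.02, adjusted p = 0.037) no longer passed, at 0.2 without LF1h replicate 1, 0.14 without LF30min replicate 1 and 0.17 without LF30min replicate 2.

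The step between the same time points after the HF meal shares no array with the LF step. There 101 of 45037 probe sets were modulated (0.224%), 61 upwards (0.135%) and 40 downwards (0.0888%). Of the 72 probe sets modulated after the LF meal, 58 were modulated after the HF meal, 52 in the same direction, which is 72.2% of the LF and 51.5% of the HF probe sets, and 6 in the opposite one. Across the 72 the steps correlated at 0.84, and at 0.37 across all probe sets, which are not independent of each other. The difference between the steps was tested itself, as LF minus HF, and 27 of 45037 probe sets (0.06%) differed at least 2-fold, 22 upwards (0.0488%) and 5 downwards (0.0111%), among them 16 of the 72. Counted as genes without the fold minimum, 32 differed (0.176%), 21 upwards (0.115%) and 11 downwards (0.0605%).

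**Figure D3:**
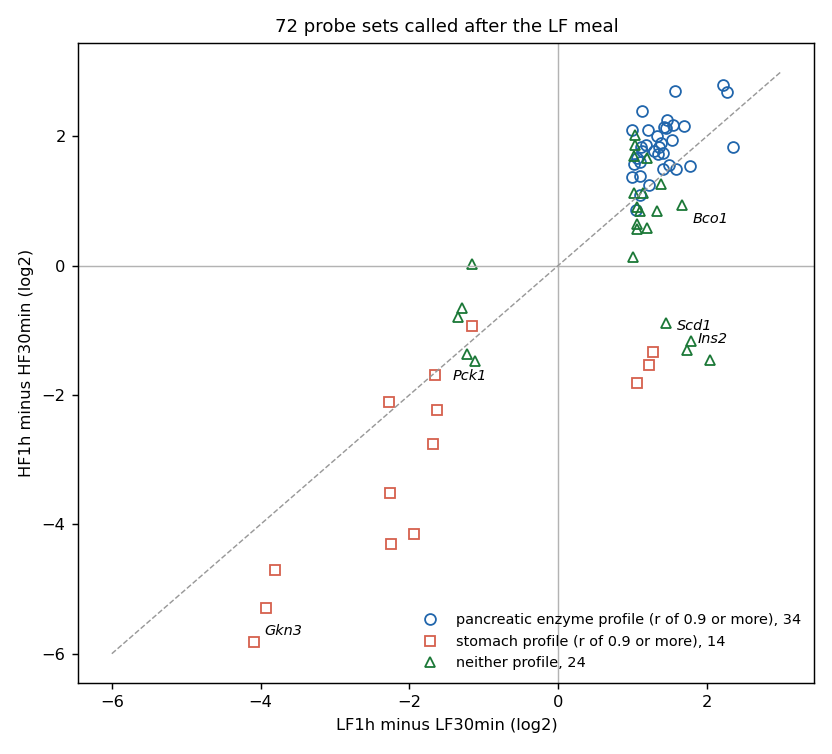
Change from 30 min to 1 h after the LF meal (horizontal, log2) against the same step after the HF meal (vertical, log2) for the 72 probe sets modulated after the LF meal, with the line of equal change dashed. Most of the 34 probe sets with the profile of the pancreatic enzymes lie above the line, the stomach genes that fell lie mostly below it, and 7 probe sets, Ins2 and Scd1 among them, lie at lower right, rising after the LF and falling after the HF meal.

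Of the 8 stomach genes that fell after the LF meal, 5 fell less than after the HF meal by the test of the difference. The LF step of Gkn1 was -1.93, against an HF step of -4.15, a difference of 2.23 (adjusted p = 1e-05). That of Gkn2 was -2.26, against -3.52 (1.26, adjusted p = 0.00025), that of Tff2 was -1.68, against -2.76 (1.08, adjusted p = 0.0011), and that of Gkn3 was -4.09, against -5.82 (1.73, adjusted p = 0.0088). Muc5ac was the fifth (-0.70, against -1.67). The difference did not pass for Tff1 (-1.62, against -2.23, adjusted p = 0.12), Ctse (-0.67, against -0.35, adjusted p = 0.47) or Anxa10. Anxa10 and Sptssb were not told apart, with LF steps of -2.27 and -1.66, against HF steps of -2.10 and -1.69 (adjusted p = 0.87 and 0.98 for the difference). The adjusted p for Gkn3 was up to 0.07 without LF1h replicate 2, LF30min replicate 1, HF1h replicate 1, HF30min replicate 1 or HF30min replicate 2.

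Genes of the gastric glands, which did not pass in the LF step, differed between the meals too. Atp4a had an LF difference of 0.78, against an HF step of -2.11 (2.89, adjusted p = 0.00011), Chia1 of 0.57, against -1.89 (2.46, adjusted p = 0.00011), and Pgc of 0.43, against -1.24 (1.67, adjusted p = 0.0011). These 3 differences passed without any 1 of the 8 arrays. That of Cblif (1.00, adjusted p = 0.039) did not, with 0.061 to 0.22 when any 1 was left out.

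The median change of the pancreatic enzymes was 0.93 after the LF meal, against 1.42 after the HF meal, where all 18 also passed and 0.572% of all genes rose. The difference passed for 6 of the 18, all with the smaller LF step, and did not for the other 12, among them Pla2g1b (1.59, against 1.5), Ctrc, a chymotrypsin (1.10, against 1.09) and Amy1 (1.23, against 1.25). For Ctrl it was 0.84, against 1.60 (-0.76, adjusted p = 0.014), and for Rnase1, the pancreatic ribonuclease, 1.12, against 1.83 (-0.71, adjusted p = 0.022). The other 4 were Cpb1 (-0.71), Cpa1 (-0.69), Pnliprp1 (-0.69) and Cela1 (-0.68), and Gp2 (-0.68) and Cuzd1 (-0.72) of the granule membrane joined them. These 8 did not hold against the loss of an array. Without any 1 of the 8 arrays the adjusted p of the other 7 lay between 0.068 and 0.23, and that of Ctrl lay between 0.045, without HF1h replicate 1, and 0.093.

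Ins2 and Iapp went in opposite directions after the 2 meals. Ins2 rose by 1.73 between 30 min and 1 h after the LF meal and fell by 1.30 after the HF meal, a difference of 3.04 ± 0.12 (adjusted p = 6.6e-08). Iapp changed by 1.23, against -1.53 (2.76, adjusted p = 1.7e-05). Scd1 changed by 1.45, against -0.88 (2.32, adjusted p = 1.4e-06), and the probe set of Car3 that rose by 1.79, against -1.16 (2.95, adjusted p = 1.4e-06). The probe set with no gene changed by 2.04, against -1.46 (3.49, adjusted p = 6.6e-08). All 5 differences passed without any 1 of the 8 arrays. Ppy, the islet gene that had not passed in the LF step, had 0.40, against -0.53 (0.94, adjusted p = 0.012, and up to 0.091 without LF1h replicate 1, LF30min replicate 2, HF1h replicate 2, HF30min replicate 1 or HF30min replicate 2).

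A few intestinal genes rose more after the LF than after the HF meal. The LF step of Cubn was 0.89, against an HF step of 0.10 (0.79, adjusted p = 0.015), that of Aqp1 was 0.94, against 0.08 (0.86, adjusted p = 0.035), and that of Bco1 was 1.67, against 0.94 (0.73, adjusted p = 0.031). The dimmer probe set of Slc13a1 fell by 1.16, against a difference of 0.03 (-1.19, adjusted p = 0.0022). The first 3 did not hold against the loss of an array: without 1 of the 8, the adjusted p was 0.017, without HF1h replicate 2, to 0.097 for Cubn, 0.054 to 0.18 for Aqp1 and 0.075 to 0.16 for Bco1. The steps of Pck1, Pdk4, Hsph1 and Egr1 were not told apart at this error, with LF steps of -1.22, -0.88, 1.07 and -0.87, against HF steps of -1.37, -0.76, 0.91 and -1.09, and adjusted p-values for the difference from 0.67 to 0.81. For Hspa1b the probe sets differed: the LF step was 1.02, against 1.69, in the brightest (-0.67, adjusted p = 0.3), 1.04, against 1.86, in another (-0.82, adjusted p = 0.072), and 1.04, against 2.02, in the dimmest (-0.97, adjusted p = 0.035, and 0.055 to 0.19 when any 1 of the 8 arrays was left out).

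**Figure D4:**
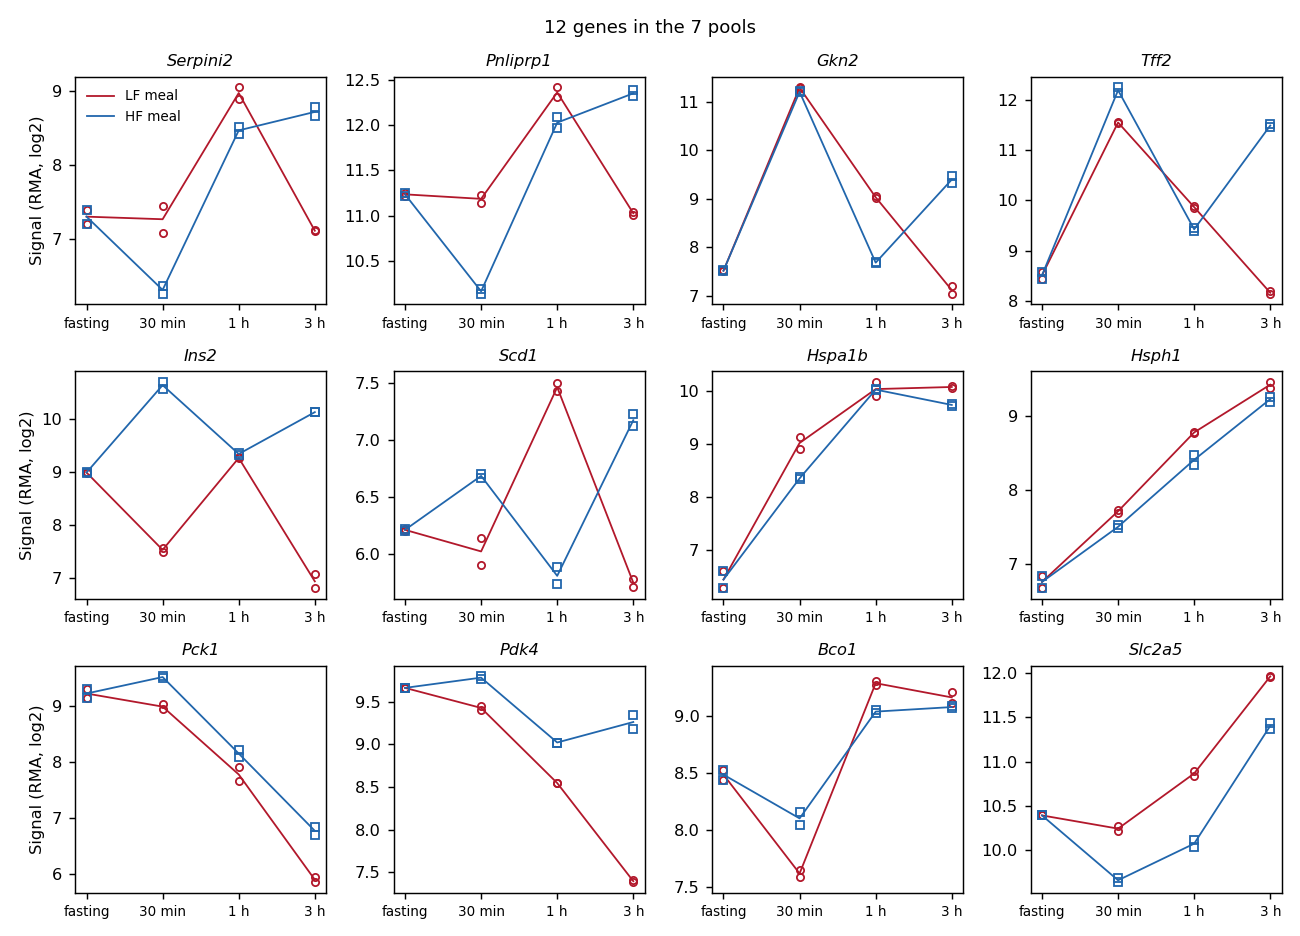
Signal (log2, RMA) of 12 genes in the fasting pool and at the 3 times after the LF meal (circles) and the HF meal (squares), with the 2 arrays of each pool as points and lines through their means. Serpini2 and Pnliprp1 peak at 1 h after the LF meal, Gkn2 and Tff2 peak at 30 min, Ins2 and Scd1 run opposite ways after the 2 meals, and Pck1 and Pdk4 go down, Slc2a5 and Hsph1 up, to 3 h after the LF meal.

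The courses over all pools place the step. They share arrays with it, so only levels are given. The mean of the pancreatic enzymes was 11.03 and 11.05 in the fasting arrays, 10.91 and 10.96 in LF30min, 11.93 and 11.92 in LF1h, and 10.72 and 10.75 in LF3h, so that it stood above the fasting level at 1 h alone. After the HF meal it was 10.22 and 10.24, then 11.7 in each HF1h array, then 11.83 and 11.87. The stomach list stood at 5.43 and 5.42 in the fasting arrays, 6.55 and 6.49 in LF30min, 5.88 and 5.91 in LF1h, and 5.36 and 5.3 in LF3h. Its fall between 30 min and 1 h thus followed a level above that of fasting.

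Other genes had other courses. Ins2 had means of 8.99 in the fasting pool, 7.53, 9.27 and 6.94 at the 3 LF times, and 10.65, 9.34 and 10.13 at the 3 HF times, so that its LF1h level was close to that of fasting. Scd1 had 6.21 in the fasting pool and 6.02, 7.47 and 5.74 after the LF meal, high at 1 h alone. Bco1 had 8.48, then 7.62, 9.29 and 9.16, with its low at 30 min. Hspa1b had 6.44, then 9.02, 10.04 and 10.08, Pck1 had 9.22, then 8.99, 7.77 and 5.89, and Slc2a5 had 10.39, then 10.24, 10.87 and 11.96. Hspa1b was thus near its highest level by 1 h, while Pck1 and Slc2a5 moved on to 3 h.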

How the data were processed

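The authors hybridised 2 technical replicate arrays for each of 7 RNA pools, and deposited log2 values after background subtraction and RMA normalization, the log base taken from that method. RMA makes array distributions alike, so changes are relative to the other probe sets, and it can understate folds of dim or very bright probe sets. No scanner files were used here. Of 45101 probe sets, 64 controls were left out. GEO's platform annotation, updated by Entrez ID for 34741 probe sets, gave 1 gene for 34945 of them, several for 932 and none for 9160. A gene was represented by its brightest probe set over the 14 arrays.

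All 14 arrays entered 1 fit of limma 3.58.1 (R 4.3.3), in which each pool had its own mean, leaving 7 residual degrees of freedom, and p-values were adjusted by Benjamini-Hochberg over 45037 probe sets. The number of arrays limits the precision. Modulated meant an adjusted p under 0.05 and at least 2-fold. Tables and figures used Python 3.11.15, pandas 2.3.3 and matplotlib 3.10.9.

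The comparison and the 33 gene lists were chosen with earlier results of these data known. Named were the 12 largest rises and falls (only 10 genes fell) among modulated genes without overlap, and up to 4 passing members of each list. Other genes, and members that did not pass, were picked after their values were seen. Alternatives were other call rules, a filter on dim probe sets, other variance models, scalings, blocks, probe sets and each array left out.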

Additional observations from a re-analysis of the deposited data

Results flagged for a closer look

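The LF step, LF1h minus LF30min, differed from the HF step, HF1h minus HF30min, in 29 of the genes and probe sets named above, by the test of the difference itself at an adjusted p under 0.05. The values are LF step minus HF step on the log2 scale. A set that rose after the LF meal and fell after the HF meal gave 3.04 for Ins2, 2.76 for Iapp, 2.32 for Scd1, 2.95 for a probe set of Car3 and 3.49 for a probe set with no gene. Of the stomach genes, 5 fell less after the LF meal, with 2.23 for Gkn1, 1.73 for Gkn3, 1.26 for Gkn2, 1.08 for Tff2 and 0.97 for Muc5ac. The value of Muc5ac had an adjusted p of 0.065 without HF30min replicate 1. Gastric gland genes gave 2.89 for Atp4a, 2.46 for Chia1, 1.67 for Pgc and 1.00 for Cblif. Of the 18 enzymes 6, and of the 26 other acinar genes Gp2 and Cuzd1, rose less after the LF meal, with -0.76 for Ctrl, -0.72 for Cuzd1, -0.71 for Cpb1, -0.71 for Rnase1, -0.69 for Cpa1, -0.69 for Pnliprp1, -0.68 for Cela1 and -0.68 for Gp2. Of the others, Aqp1 gave 0.86, Cubn 0.79, Bco1 0.73, Adipoq 0.87, Ppy 0.94, a dimmer probe set of Slc13a1 -1.19 and the dimmest probe set of Hspa1b -0.97. That of Adipoq had an adjusted p of 0.0093, without HF1h replicate 2, to 0.21 when 1 of the 8 arrays was left out. Pools held 2 arrays, too few to look for an array that stands apart.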

How the results depend on the processing

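The counts of 56 probe sets higher, 16 lower and 27 different between the LF and HF steps depended on the rule. With no fold minimum they were 176, 105 and 60, and at 1.5-fold 126, 53 and 60. Without probe sets that may match several transcripts they were 33, 9 and 15, by construction with fewer probe sets. Without genes and profiles of pancreas and stomach, an alternative added after seeing the data, 18 were higher and 5 lower. The 18 still held probe sets with no gene, which could be on no list. With 1 array left out at a time, the counts ranged from 47 to 58, 16 to 22 and 20 to 29. Under the other alternatives each count stayed within 1.5 times its value, at 50 and 16 in a fit of the 4 arrays alone. In that fit 95 of the 142 genes no longer passed at an adjusted p under 0.05, among them Hspa1b (0.072), Cited2 (0.072) and Egr1 (0.055), by construction with fewer arrays to set the spread, against 53 to 58 genes with 1 array left out and 1 to 17 under the other variance models and scalings. No direction of a named gene reversed. The replicate numbers did not pair the arrays (correlations of -0.19 to 0.15 over 21 pairs of pools, 2 of them above 0.1), and the replicate block gave 56, 16 and 25, with 23 of the 142 genes no longer passing. With the LF1h numbers crossed, also added after seeing the data, the counts were 55, 16 and 28. No detection calls were used, so how far background limits dim signals is unknown. With pooled mice, no setting covers the spread between animals.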
